A study of Mus musculus with 14 samples.

Results

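Iron enters most cells bound to transferrin, is held in ferritin and leaves through a single exporter, ferroportin. The 10 genes described here cover that route in mouse bone tumours: Tfrc, Slc11a2, Slc11a1 and Steap3 for uptake, Fth1 for storage, Hmox1 for the release of iron from haem, Slc40a1, Cp and Heph for export, and Ireb2 for control. They were listed by their role in iron handling, and each was read from its brightest probe set, which was chosen by the highest mean signal over 14 arrays. That overall signal is therefore given as a description. All 10 were among the 11815 genes tested, and 26 probe sets of the array carry their names, besides 3 control probe sets for Tfrc.

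The arrays held total RNA of a single tumour labelled rhabdomyosarcoma, of 12 osteosarcomas and of the mouse osteoblast line mc3T3. All 13 tumours arose in p53+/- mice, which carry 1 intact allele of the tumour suppressor p53. No age, sex or treatment is labelled for them, nor whether each osteosarcoma is from a mouse of its own, so p-values measure the spread between these samples, which may in part be technical. The mc3T3 cells were non-tumorigenic, untreated and grown in culture, and a single array stands for them. That array carried Col1a1 (62259), Alpl (1550.4) and Sp7 (1515), while the bone genes Ibsp (37.4), Phex (6.8) and Dmp1 (62.8) were low on it. The tumour labelled rhabdomyosarcoma had low signals for the muscle genes Myod1 (39.4), Myog (65.9) and Des (88.6), which usually mark that tumour type. Signals are in the arbitrary linear units of the array, each array having been scaled to a trimmed mean of 500. Median signals were 67.1 to 111, and 33.8% to 40.4% of probe sets reached 200.

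As background, transferrin receptor 1, the product of Tfrc, takes up iron-loaded transferrin by endocytosis; Steap3 reduces the iron in the endosome, and Slc11a2 (DMT1) carries it to the cytosol. Cells short of iron stabilise Tfrc mRNA and block ferritin translation through the iron regulatory proteins, of which Ireb2 encodes IRP2. Macrophages break down haem with Hmox1 and return the iron to plasma through Slc40a1 (ferroportin), aided by the ferroxidases Cp (ceruloplasmin) and Heph (hephaestin). Because much of this control acts on mRNA stability, translation and protein turnover, mRNA signals describe only part of the pathway.

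Promoter windows of the 3 members whose results below turn most on uptake, macrophage level and spread among tumours are shown first. Each line gives the 250 bases before a transcription start, all on the forward strand, from RefSeq with build GRCm38.p6. The windows are chr16:32608872-32609121 for Tfrc, chr1:74374953-74375202 for Slc11a1 and chr3:19956999-19957248 for Cp. Capitals mark matches on either strand to 5 searched motifs, which are the hypoxia response element core ACGTG, the antioxidant response element core TGACNNNGC, the TATA box motif TATAAA, the GC box motif GGGCGG and the promoter box motif CCAAT.
Tfrc: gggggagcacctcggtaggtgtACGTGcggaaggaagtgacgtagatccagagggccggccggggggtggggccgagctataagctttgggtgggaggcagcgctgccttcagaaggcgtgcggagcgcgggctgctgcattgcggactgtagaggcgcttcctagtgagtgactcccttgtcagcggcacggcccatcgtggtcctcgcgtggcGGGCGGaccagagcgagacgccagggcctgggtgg
Slc11a1: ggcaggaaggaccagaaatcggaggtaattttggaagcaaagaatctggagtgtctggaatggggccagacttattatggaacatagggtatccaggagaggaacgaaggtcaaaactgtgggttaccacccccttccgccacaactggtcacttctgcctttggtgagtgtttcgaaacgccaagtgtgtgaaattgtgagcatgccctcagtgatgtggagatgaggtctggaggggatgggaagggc
Cp: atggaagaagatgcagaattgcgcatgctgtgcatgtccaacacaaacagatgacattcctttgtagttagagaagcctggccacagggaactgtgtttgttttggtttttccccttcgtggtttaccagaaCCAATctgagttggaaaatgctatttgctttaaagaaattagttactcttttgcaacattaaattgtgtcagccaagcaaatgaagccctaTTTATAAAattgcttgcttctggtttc
The Tfrc window held ACGTG from 228 to 224 bases and GGGCGG from 35 to 30 bases before the start. The Cp window held CCAAT from 118 to 114 bases before the start and TATAAA on both strands, the overlapping matches lying 25 to 20 and 27 to 22 bases before it. None of the 5 motifs was in this Slc11a1 window. Among 32851 promoter windows of the same length, 16.6% held ACGTG, 10.2% TGACNNNGC, 12.4% TATAAA, 32.7% GGGCGG and 33.8% CCAAT. A match is a description of letters, not a binding site. Windows were found for 6 of 10 members, 12 windows in all. Those not shown were a second one each of Tfrc and Cp and the windows of Fth1, Ireb2 and Steap3. Of the 5 motifs, the second Tfrc window held only CCAAT and the second Cp window held none. Slc40a1, Slc11a2, Hmox1 and Heph are named only.

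The design's own control for the osteosarcomas was mc3T3, and 3 of the 10 iron genes were called higher in the tumours: Tfrc, Slc11a1 and Steap3. Steap3 and Slc11a1 reached the filter's signal of 200 only on tumour arrays, the side where they were high. Without Steap3 the count was 2, and without both genes only Tfrc was left, with 1027 in mc3T3. A call needed an adjusted p under 0.05 in limma (two-sided, Benjamini-Hochberg over all genes) and a difference of at least 1 on the log2(signal + 30) scale. Over all genes tested, 8.59% were called higher and 4.58% lower. No iron gene was called lower. The median difference of the 10 genes was -0.12 on the log2 scale, against -0.02 for all genes, and 4 of the 10 had an unadjusted p under 0.05, against 27.6% of all genes. In Tfrc, Slc40a1, Slc11a1 and Steap3 all 12 osteosarcomas lay above mc3T3, a pattern that 21.5% of all genes showed. In Fth1 all 12 lay below mc3T3, as in 21.0% of genes. The limma test assumes that the lone mc3T3 array would vary as an osteosarcoma does. In bulk samples, fewer cells of a type and less RNA per cell cannot be told apart.

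**Figure D1:**
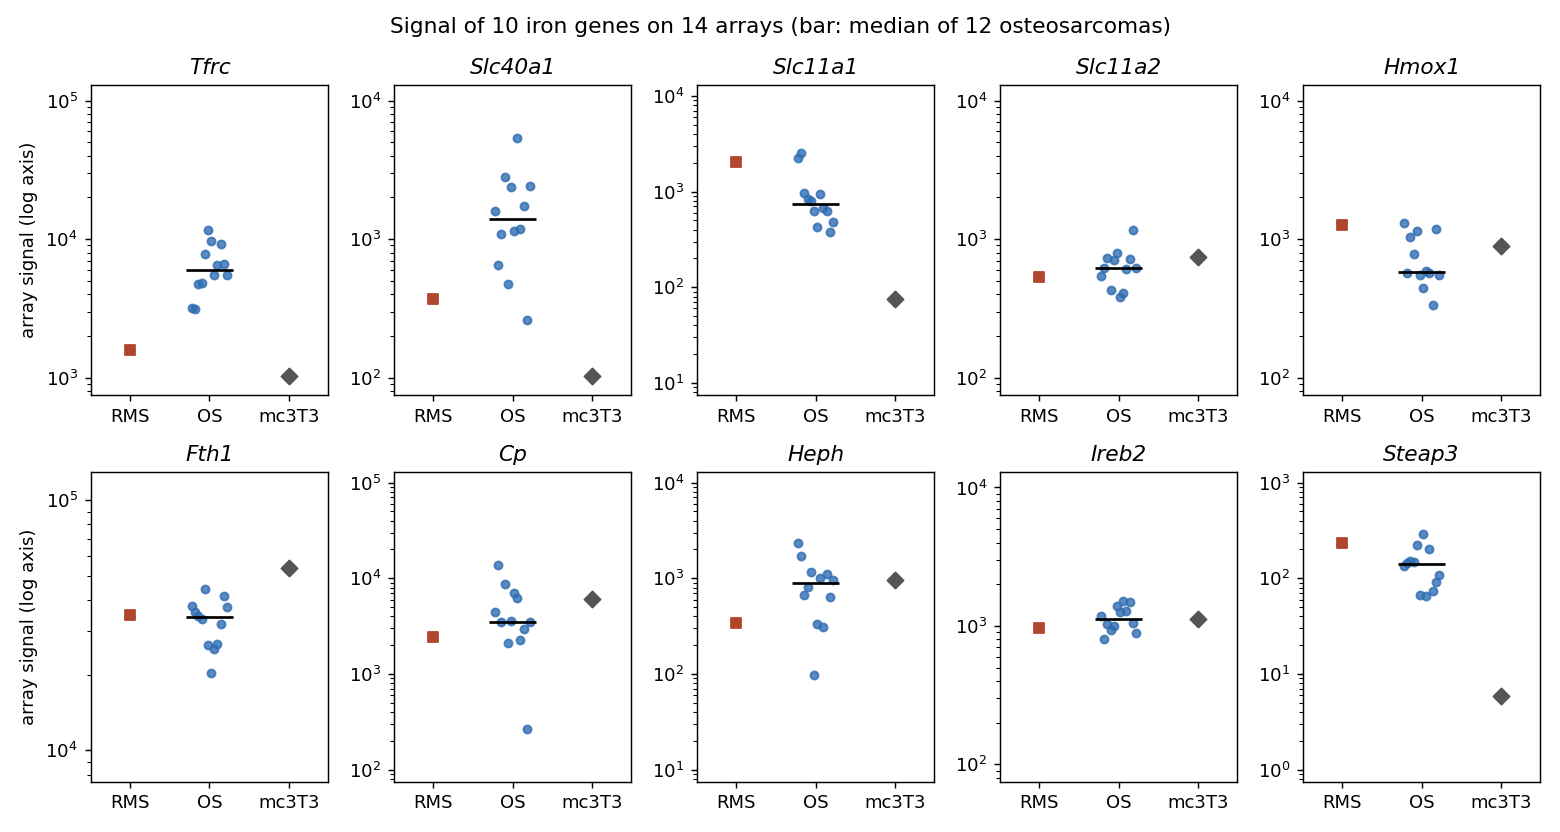
Array signal (log axis) of the 10 iron genes in the tumour labelled rhabdomyosarcoma (RMS, square), 12 osteosarcomas (OS, circles, bar at their median) and mc3T3 (diamond); the range of the axis differs between panels. Tfrc, Slc40a1, Slc11a1 and Steap3 have mc3T3 below every osteosarcoma, and Fth1 has it above every one.

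Tfrc, the receptor that brings transferrin iron into the cell, had a signal of 3118 to 11691 (median 5993) in the osteosarcomas and 1027 in mc3T3. Osteosarcoma 6 was the highest and osteosarcomas 2 and 1 (3175) the lowest, and even these stood well above the cultured line. Tfrc differed by 2.52 ± 0.58 on the log2 scale (SE; 95% interval 1.29 to 3.76; limma adjusted p = 0.00917), a 5.75-fold higher level. The probe set next in brightness gave 496 to 2785 in the osteosarcomas and 155 in mc3T3, a difference of 2.98. All 6 Tfrc probe sets, the 3 control ones included, had mc3T3 below the lowest osteosarcoma. The control probe sets also report on both ends of the Tfrc transcript: the signal at the 3' end over that at the 5' end was 3.14 to 9.42 (median 4.26) in the osteosarcomas and 9.96 in mc3T3, where the 5' signal was only 9.3. This ratio was thus highest on the array with the lowest Tfrc, and its part in the difference was not tested. For beta-actin the same ratio was 1.42 to 2.13 in the osteosarcomas and 1.32 in mc3T3.

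Slc11a1 (NRAMP1) is a metal transporter of the phagosome membrane, best known in macrophages. Its signal was 382 to 2557 (median 735) in the osteosarcomas and 75.5 in mc3T3. At the top were osteosarcomas 2 and 1 (2229), with the other 10 tumours between 382 and 959. The difference was 2.99 ± 0.77 (SE; 95% interval 1.33 to 4.64; adjusted p = 0.0186), and 2.38 with a pseudocount of 100. No detection calls were used, so the mc3T3 value cannot be told from background and the difference gives a direction more than a size. The 17 macrophage marker genes moved with it: 16 were called higher in the osteosarcomas, the other being Cd14 (1.51, adjusted p = 0.146). Their mean level was 11.13 to 12.92 on the log2 scale in the osteosarcomas and 6.34 in mc3T3, where 15 of 17 had a signal under 200 and none was at 0. Other cell types differed too: 10 of 10 osteoclast genes and 6 of 6 endothelial genes were called higher in the osteosarcomas than in mc3T3. Over all genes tested, 8.59% were called higher. In mc3T3, 6 of 10 osteoclast and 6 of 6 endothelial genes had a signal under 200. Like the 15 macrophage genes, these passed the filter only through tumour arrays. The part of macrophages, osteoclasts or endothelial cells in the differences of Slc11a1, Tfrc and Slc40a1 was not tested.

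Steap3, the endosomal ferrireductase, was a dim gene. It had 64.9 to 292 (median 140.05) in the osteosarcomas and 5.9 in mc3T3. Tumours 7, 5 and 9 were the highest and the only ones to reach 200, so the gene passed the filter on low signal through them and the tumour labelled rhabdomyosarcoma. The difference was 2.16 ± 0.55 (SE; adjusted p = 0.0177). It was 1.14 with a pseudocount of 100 (adjusted p = 0.0761) and was 1.97 with the 6 osteosarcomas whose identifiers start with m (adjusted p = 0.0662), so the call did not hold under either. The other 2 Steap3 probe sets never reached 200.

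Slc40a1 (ferroportin), the only known iron exporter of vertebrates, was higher in all 12 osteosarcomas than in mc3T3 but missed the call. Its signal was 262 to 5346 (median 1389) in the osteosarcomas and 102 in mc3T3. Osteosarcoma 8 was by far the highest tumour and osteosarcoma 11 the lowest. The difference was 3.37 ± 1.07 (SE; 95% interval 1.08 to 5.66; adjusted p = 0.0507), and 2.85 with a pseudocount of 100, the mc3T3 signal being too low to be told from background. It passed under 9 of 23 alternatives, with adjusted p between 0.0174 and 0.0796 over all of them. Without osteosarcoma 11, 5, 8 or 2 in turn it was 0.0174, 0.0394, 0.0413 and 0.0490. The dimmer Slc40a1 probe set gave 163 to 2215 in the osteosarcomas and 77.4 in mc3T3, a difference of 2.51 (adjusted p = 0.071).

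The remaining 6 genes were not called. Fth1, the ferritin heavy chain, which oxidises and stores iron, had 20389 to 44109 (median 34070) in the osteosarcomas and 53499 in mc3T3. Although no osteosarcoma reached the mc3T3 value, the difference of -0.73 ± 0.36 (SE; 95% interval -1.51 to 0.05) had an adjusted p of 0.209. Both Fth1 probe sets gave -0.73, but quantile normalization gave a smaller difference of -0.395. Slc11a2, the divalent metal transporter of endosomes and gut, had 382 to 1166 (median 622) in the osteosarcomas and 748 in mc3T3. The cultured line lay inside the tumours' range, and the difference was -0.27 ± 0.45 (95% interval -1.22 to 0.69). Its probe sets did not give the same direction against mc3T3, with -1.12 for the one next in brightness and 0.59 for the one after that.

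Hmox1, haem oxygenase 1, splits haem into iron, carbon monoxide and biliverdin. It had 337 to 1298 (median 581) in the osteosarcomas and 892 in mc3T3, which lay among them. The difference was -0.34 ± 0.58 (95% interval -1.58 to 0.89). Cp, the plasma ferroxidase, had 268 to 13676 (median 3519) in the osteosarcomas and 6046 in mc3T3, and Heph, its membrane-bound relative, had 96.7 to 2325 (median 893) in the osteosarcomas and 965 in mc3T3. Both wide ranges enclosed the cultured line, with differences of -0.77 ± 1.27 for Cp and -0.39 ± 1.06 for Heph. Single tumours moved both, to -0.44 for Cp without osteosarcoma 11 and to -0.16 for Heph without osteosarcoma 6. The dimmest tested Cp probe sets gave the other direction against mc3T3, with 0.68 and 0.36, while the remaining tested ones were negative. Ireb2, the iron sensor whose protein is destroyed when iron is plentiful, had 807 to 1525 (median 1118) in the osteosarcomas and 1117 in mc3T3. With a difference of 0.02 ± 0.34 (95% interval -0.70 to 0.74), Ireb2 had the smallest difference of the 10, and its sign turned under 5 alternatives.

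**Figure D2:**
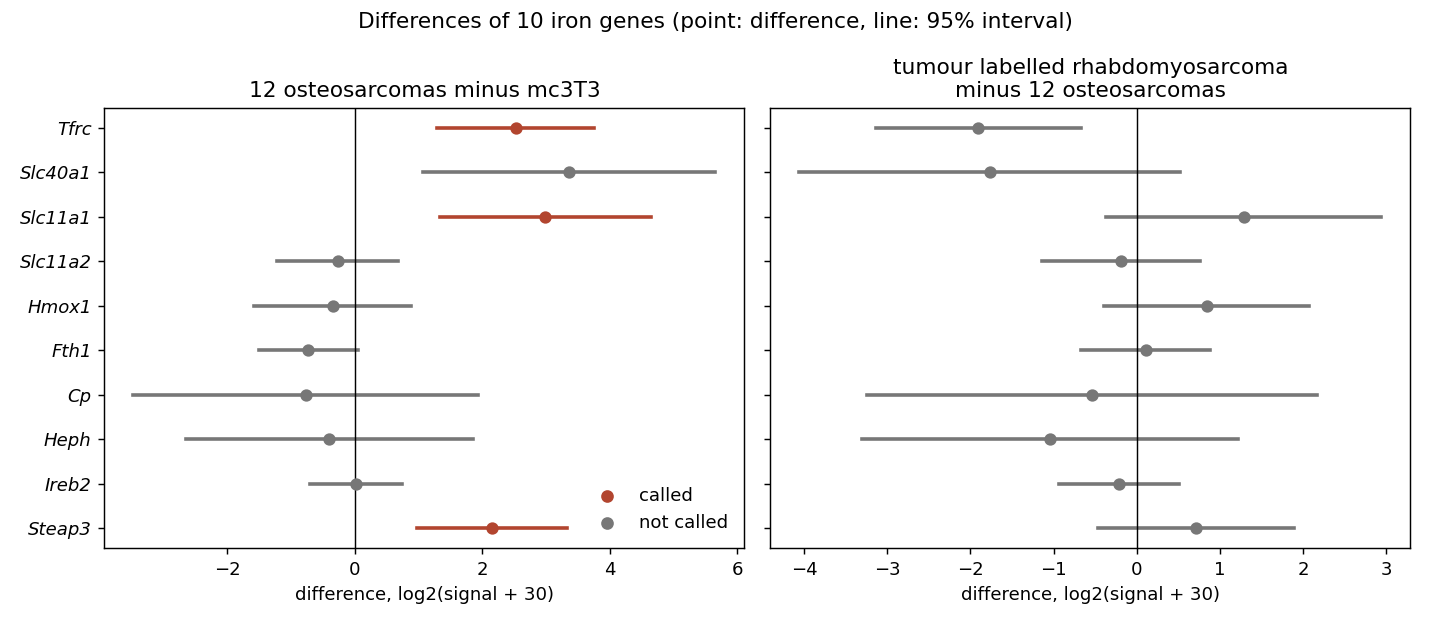
Difference in log2(signal + 30) for the 10 iron genes, osteosarcomas minus mc3T3 (left) and tumour labelled rhabdomyosarcoma minus osteosarcomas (right), with 95% intervals from limma. On the left Tfrc (2.52), Slc11a1 (2.99) and Steap3 (2.16) are coloured as called; on the right none is, and Tfrc (-1.90) has the interval farthest from 0.

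The tumour labelled rhabdomyosarcoma was then set against the 12 osteosarcomas, which also enter the comparison above. None of the 10 iron genes was called (limma), while 1.19% of all genes were called higher and 1.76% lower, 2.95% in all. Only Tfrc had an unadjusted p under 0.05, against 15.98% of all genes. The median difference of the 10 was -0.20 on the log2 scale, and that of all genes 0.05.

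Tfrc had a signal of 1595 in the tumour labelled rhabdomyosarcoma, against 3118 to 11691 in the osteosarcomas. It was the single iron gene of the 10 outside the osteosarcomas' range on the low side, where 14.1% of all genes lay, and none lay above it, where 16.6% of genes did. Its difference was -1.90 ± 0.58 (SE; 95% interval -3.14 to -0.67; adjusted p = 0.100). Set against the 6 m osteosarcomas alone it was -2.19 (adjusted p = 0.0399) and passed. The 3' to 5' ratio of Tfrc was 3.64 in this tumour, within the osteosarcomas' range of 3.14 to 9.42. In 5 of 6 Tfrc probe sets the tumour lay below all osteosarcomas, the exception being the dimmest of the 3 tested ones, at 130.2 against 79.3 to 551.

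The other 9 genes lay within the osteosarcomas' range. Slc11a1 had 2016 in the tumour labelled rhabdomyosarcoma, below osteosarcomas 2 and 1 and above the other 10 (difference 1.29 ± 0.77, adjusted p = 0.446). Hmox1 had 1275 there, just under osteosarcoma 1 (0.85 ± 0.58, adjusted p = 0.515). The macrophage level of this tumour, 13.23, was above the 11.13 to 12.92 of the osteosarcomas, though 0 of 17 macrophage genes were called. The list was not uniform: Cd68, at 5515, lay below every osteosarcoma (7551 to 23230). Tyrobp (-0.23) and Fcer1g (-0.21) were also lower, and the rest of the list was higher. Against the osteosarcomas 9 of 10 osteoclast genes and 5 of 6 osteoblast genes were called lower in this tumour, beside 1.76% of all genes. The part of these cell types in its Tfrc value was not tested. On the low side, Slc40a1 had 371 in the tumour labelled rhabdomyosarcoma, where only osteosarcoma 11 was lower (-1.77 ± 1.07, adjusted p = 0.454), and Heph had 338 (-1.04 ± 1.06). Cp at 2426 (-0.54 ± 1.27), Steap3 at 232 (0.72 ± 0.55), Ireb2 at 970 (-0.22 ± 0.34), Slc11a2 at 537 (-0.19 ± 0.45) and Fth1 at 34722 (0.11 ± 0.36) had adjusted p of 0.571 or more. The intervals of Cp (-3.25 to 2.16) and Heph (-3.30 to 1.21) were wide, and both genes varied widely among the osteosarcomas.

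The osteosarcomas differed among themselves most in the export genes. The highest tumour had 51.0 times the lowest for Cp, 24.0 times for Heph and 20.4 times for Slc40a1. Their SDs on the log2 scale, 1.38, 1.14 and 1.16, exceeded those of 97.7%, 95.4% and 95.7% of all genes tested. The storage gene Fth1 (2.16 times, SD 0.33) and the regulator Ireb2 (1.89 times, SD 0.29) varied least, with a smaller SD found in 25.6% and 17.1% of genes. Between them lay Slc11a1 (6.69 times, SD 0.82), Steap3 (4.49 times, 0.57), Hmox1 (3.85 times, 0.59), Tfrc (3.75 times, 0.59) and Slc11a2 (3.05 times, 0.43).

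Cp shows how far single tumours set these ranges. Osteosarcoma 11 had 268 and the next lowest, osteosarcoma 5, 2099; at the top stood osteosarcoma 2 with 13676 and osteosarcoma 4 with 8676. The 7 tested Cp probe sets placed osteosarcoma 11 lowest throughout, from 31.8 to 268. Osteosarcoma 11 was also the lowest of the 12 for Slc40a1 (262) and Slc11a1 (382) and the highest for Slc11a2 (1166). Osteosarcoma 2 paired the highest Cp and Slc11a1 with the lowest Tfrc (3118) and Ireb2 (807). In Heph, osteosarcoma 6 (96.7) stood below the next, osteosarcoma 9 (312). These were the 2 osteosarcomas with high mature muscle genes, at 14.77 and 13.87 on the log2 scale. The other 10 had 6.03 to 11.72. Among those 10, osteosarcoma 7, with a muscle level of 7.84, had a Heph signal of 332, close to that of osteosarcoma 9. The part of muscle tissue in these Heph levels was not tested. Osteosarcoma 6 also had the highest Tfrc by the brightest probe set, but 1535 by the next one, near the osteosarcoma median of 1504. Its erythroid marker level, 10.09, was the highest, the others lying between 6.13 and 7.54. Over the 12 osteosarcomas Tfrc had r = 0.44 with the erythroid level (permutation p = 0.166), and r = -0.34 without osteosarcomas 5 and 6. Haemoglobin-making red cell precursors carry much transferrin receptor, and the part of such cells in the Tfrc value of osteosarcoma 6 was not tested.

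**Figure D3:**
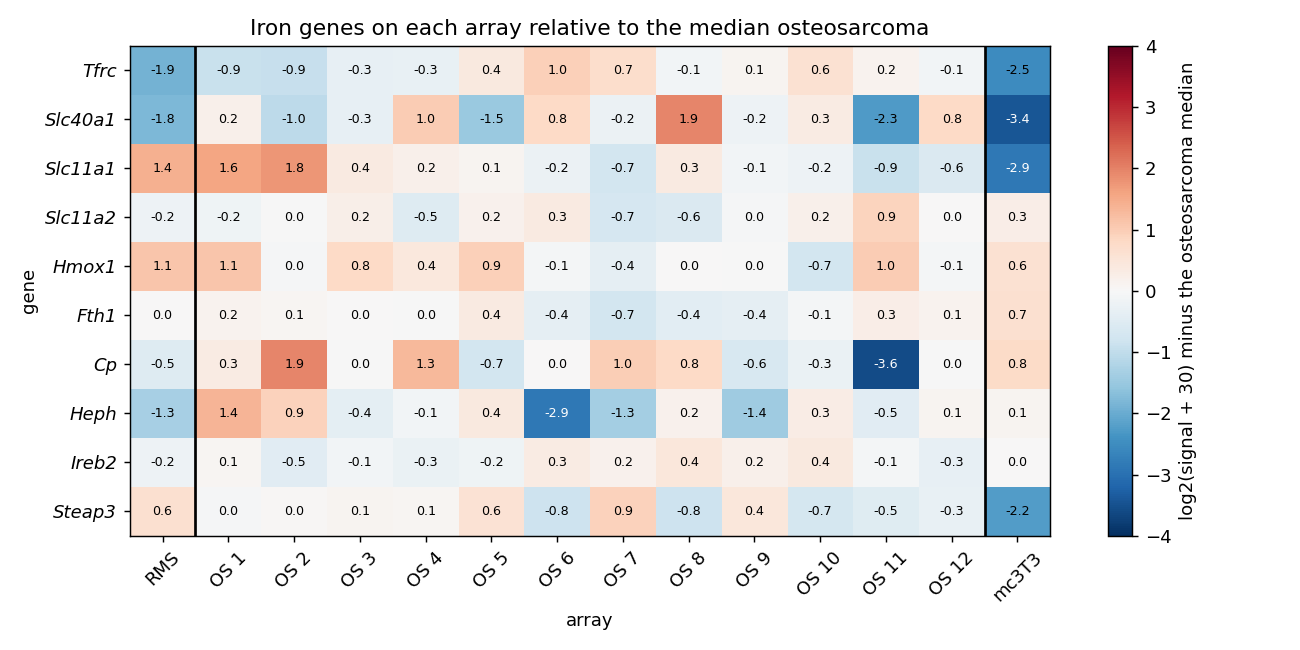
Each cell is a gene's log2(signal + 30) on an array minus the median of the 12 osteosarcomas, with the tumour labelled rhabdomyosarcoma (RMS) at the left and mc3T3 at the right of the osteosarcomas (OS). Osteosarcoma 11 is low in Cp and Slc40a1, osteosarcoma 6 is low in Heph, and the mc3T3 column is low in Tfrc, Slc40a1, Slc11a1 and Steap3.

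Separate probe sets of a gene ranked the osteosarcomas alike to differing degrees. The 2 Slc40a1 probe sets correlated at r = 0.97 over the 12 osteosarcomas and the 2 Fth1 probe sets at r = 0.93. For Tfrc the brightest and the next probe set correlated at r = 0.70, and for Slc11a2 at r = 0.62. In Tfrc the signal of the brightest probe set over that of the next was 2.67 to 8.61 (median 3.64) in the osteosarcomas, highest in osteosarcomas 10 (8.61) and 6 (7.62). The brightest probe set alone therefore puts osteosarcoma 6 first, while the next puts osteosarcoma 7 first with 2785. Slc11a1, Hmox1, Heph and Ireb2 had a single probe set, so no such check was possible for them.

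**Figure D4:**
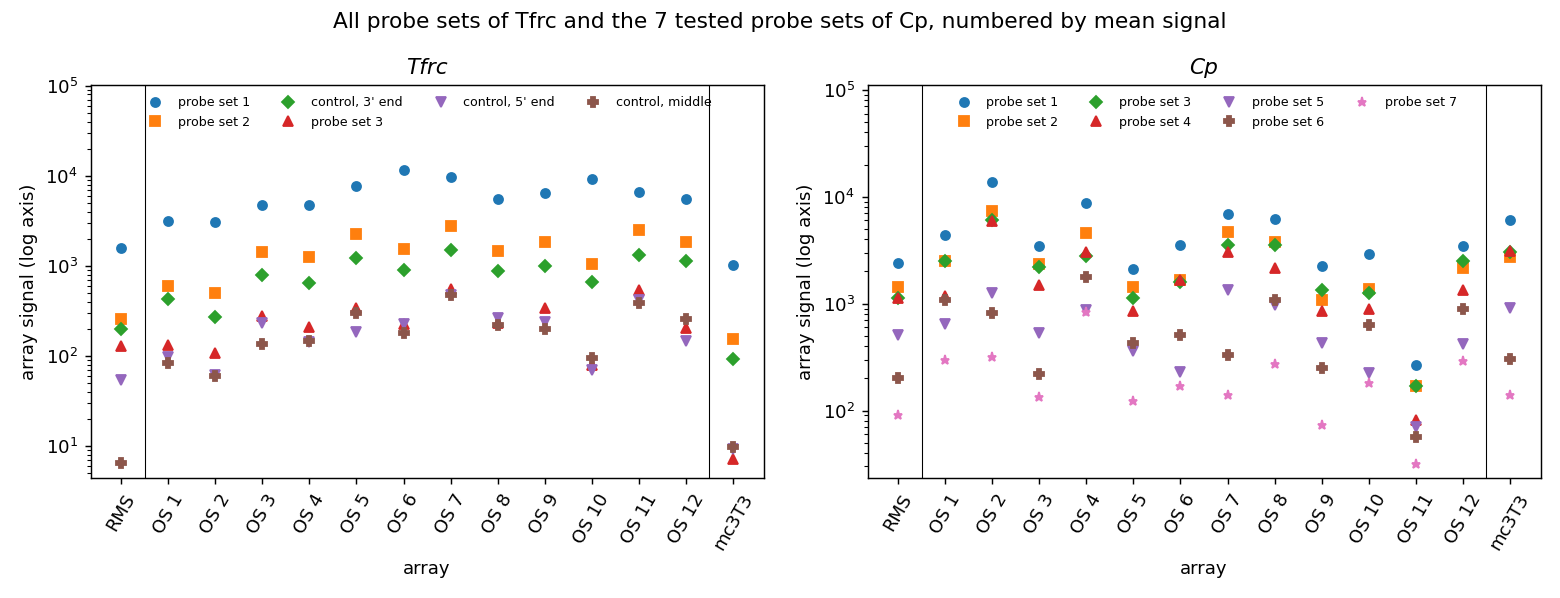
Signal (log axis) of the 3 tested and 3 control probe sets of Tfrc (left) and of the 7 tested probe sets of Cp (right) on each array, numbered by mean signal. All 6 Tfrc probe sets have mc3T3 below every osteosarcoma, and all 7 Cp probe sets have osteosarcoma 11 below every other osteosarcoma.

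Whether the iron genes followed the amount of macrophage, osteoclast, erythroid or cell cycle RNA was examined over the 12 osteosarcomas in 40 relations. With the macrophage level, Slc11a1 had r = 0.82 (permutation p = 0.00066, Benjamini-Hochberg value 0.0264) and rho = 0.92 (permutation p = 8e-05, Benjamini-Hochberg value 0.0032). It was the 1 relation of 40 to pass by Pearson's r. Osteosarcomas 2 and 1 combined high macrophage levels (12.92 and 12.72) with the highest Slc11a1. Osteosarcomas 3 and 4 had levels like that of osteosarcoma 1 (12.72 and 12.71) but lower Slc11a1 signals, of 959 and 846 against 2229. Without osteosarcomas 7 and 11, the farthest from the median macrophage level, r was 0.78, and in the 6 m osteosarcomas alone 0.68 (exact permutation p = 0.138). Leaving out each osteosarcoma in turn gave r between 0.79 and 0.85, and the adjusted value then missed 0.05 without osteosarcoma 2, 6, 9, 10 or 11, reaching 0.098.

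Tfrc ran the other way with the macrophage level. Its r was -0.75 (permutation p = 0.00526, Benjamini-Hochberg value 0.105) and its rho -0.86 (permutation p = 0.00059, Benjamini-Hochberg value 0.0118), so it passed by rank and not by Pearson's r. Without osteosarcomas 7 and 11 r was -0.80, and in the 6 m osteosarcomas -0.40 (exact permutation p = 0.422). Without osteosarcoma 5 the Pearson relation passed (Benjamini-Hochberg value 0.0496). The exporter Slc40a1, though known from macrophages, had r = 0.14 with their markers (permutation p = 0.668) and r = 0.52 with the osteoclast level (permutation p = 0.0806, Benjamini-Hochberg value 0.461). By rank that osteoclast relation had rho = 0.75 (permutation p = 0.00693, Benjamini-Hochberg value 0.0924), and r was 0.71 without osteosarcomas 1 and 2 and 0.83 in the 6 m osteosarcomas (exact permutation p = 0.0417). Heph had r = 0.60 with the macrophage level (permutation p = 0.038, Benjamini-Hochberg value 0.380) and rho = 0.64 (permutation p = 0.0301). Slc11a1 had r = -0.71 with the osteoclast level (permutation p = 0.0107, Benjamini-Hochberg value 0.143), which was -0.09 without osteosarcomas 1 and 2 and so rested on them. Levels scaled on the same array share its scaling error, and no relation with the erythroid or cell cycle level passed.

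**Figure D5:**
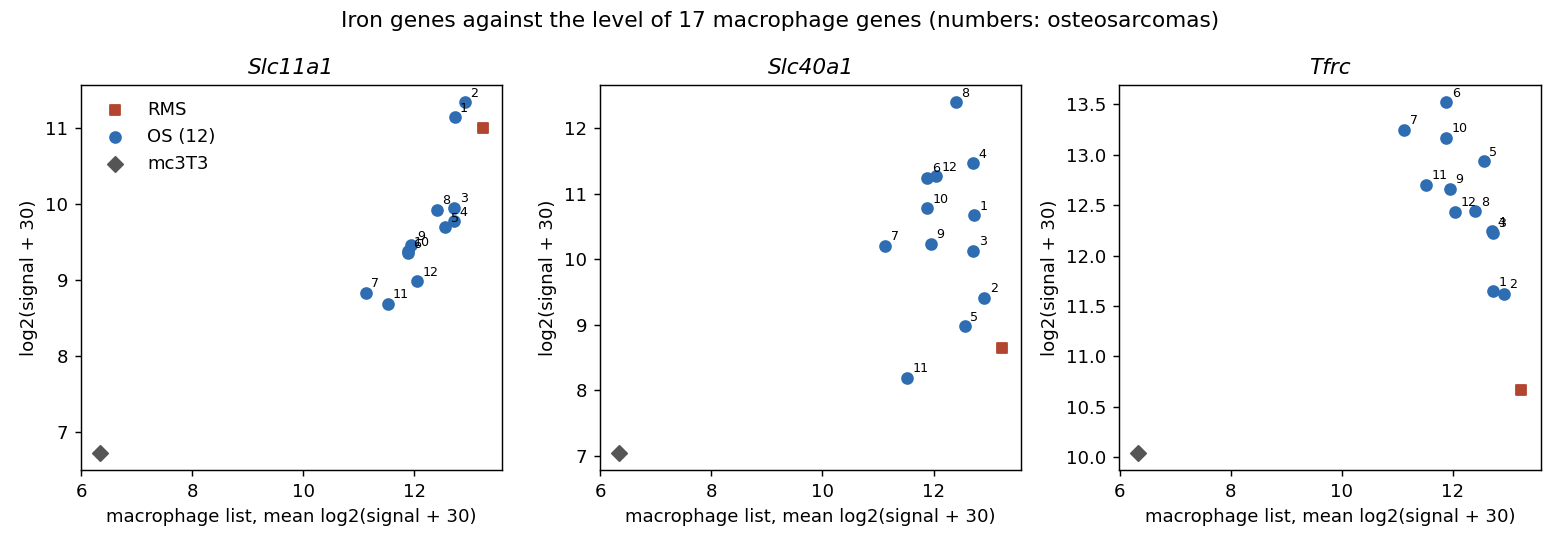
Log2(signal + 30) of Slc11a1, Slc40a1 and Tfrc against the mean log2 level of 17 macrophage genes, with osteosarcomas numbered, the tumour labelled rhabdomyosarcoma (RMS) as a square and mc3T3 as a diamond. Over the 12 osteosarcomas r is 0.82 for Slc11a1, 0.14 for Slc40a1 and -0.75 for Tfrc; mc3T3 lies far to the left at a macrophage level of 6.34.

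Of the 45 pairs of iron genes, none passed after adjustment and 8 had an unadjusted permutation p under 0.05 over the 12 osteosarcomas. The strongest were Tfrc with Slc11a1 (r = -0.78, permutation p = 0.00281, Benjamini-Hochberg value 0.076, rho = -0.76 with permutation p = 0.00557) and Slc11a2 with Cp (r = -0.78, permutation p = 0.00338, Benjamini-Hochberg value 0.076, rho = -0.66 with permutation p = 0.0233). Without the 2 tumours farthest from the median of the gene named first, r was -0.75 and -0.53. In the 6 m osteosarcomas the same r were -0.10 and -0.67 (exact permutation p = 0.860 and 0.168). The mean of all Tfrc probe sets gave r = -0.87 with Slc11a1 (Benjamini-Hochberg value 0.0252). Slc11a2 with Cp gave r = -0.87 without osteosarcoma 2 (Benjamini-Hochberg value 0.0112).

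As a description, the tested genes whose log2 signal was most like that of each iron gene over the 12 osteosarcomas were taken from all genes, with no test and with 12 points that share each array's scaling. Slc11a1 was most like Ap1b1 (r = 0.94), a subunit of a clathrin adaptor, the phospholipase D family gene Pld4 (0.92) and the organic anion transporter Slco2b1 (0.92). Tfrc was most like Trak2 (0.91), a trafficking adaptor of mitochondria, Gabarapl2 (0.83) and ND5 (0.83). Slc40a1 was nearest to Rcan2 (0.90), Cadm1 (0.89) and Cyp39a1 (0.88). For the ferroxidases, Cp was nearest to the cytokine signalling inhibitor Cish (0.95), Hsdl1 (0.93) and Syde2 (0.92), and Heph to Pank2 (0.92), Pmf1 (0.90) and Kcnk13 (0.89). Hmox1 was nearest to the aryl hydrocarbon receptor gene Ahr (0.93), Moxd1 (0.92) and the glycolytic gene Pgam1 (0.92). Fth1 was nearest to Cdkn2a (0.91), Trappc3 (0.91) and Pmepa1 (0.90). The dimmer or steadier genes gave Prickle1 (0.91), Car12 (0.91) and Slc2a13 (0.88) for Slc11a2, Snn (0.92), Icam2 (0.88) and Bcl6b (0.87) for Ireb2, and Polr1a (0.90), Unc119b (0.89) and Zfp956 (0.86) for Steap3.

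Other genes of iron handling were described from 3 lists. Of 36 further iron genes, 28 were tested; 2 were called higher in the osteosarcomas than in mc3T3, 1 lower and 25 not called (limma), with a median difference of -0.20 against -0.02 for all genes. These counts stand beside 8.59% of all genes called higher and 4.58% lower. Hfe, a partner of the transferrin receptors that is mutated in hereditary haemochromatosis, had 496 to 1729 in the osteosarcomas and 209 in mc3T3 (2.17 ± 0.49, adjusted p = 0.00828). Bmp2, a bone morphogenetic protein that can also induce the iron hormone hepcidin, had 182 to 1376 in the osteosarcomas and 17.1 in mc3T3 (3.74 ± 0.76, adjusted p = 0.00402). Lcn2, the siderophore-binding lipocalin, had 52.9 to 2837 in the osteosarcomas and 5562 in mc3T3 (-4.56 ± 1.25, adjusted p = 0.0259). The 3 called genes all had mc3T3 outside the range of the tumours. They were picked by their difference from that same array, so this adds little to the calls. All 12 osteosarcomas lay above mc3T3 in 21.5% of all genes tested and below it in 21.0%. Aco1, which encodes the other iron regulatory protein IRP1, had 2327 to 4859 in the osteosarcomas and 6094 in mc3T3 (-0.81 ± 0.37, adjusted p = 0.165). Ncoa4, the receptor that delivers ferritin for degradation, differed by 0.34 ± 0.31 and Fbxl5, which targets IRP2 for degradation, by -0.33 ± 0.36, neither of them called. In the tumour labelled rhabdomyosarcoma 0 of 28 were called against the osteosarcomas, with a median difference of -0.27 against 0.05 for all genes; Aco1 had 1762 in that tumour and differed by -0.96 ± 0.37 (adjusted p = 0.203). The ferritin light chain gene Ftl1 and the transferrin gene Trf are not analysed here.

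Of 21 haem handling genes, 18 were tested, and 4 were called higher and 0 lower in the osteosarcomas against mc3T3, beside 8.59% and 4.58% of all genes, with a median difference of 0.78 against -0.02 for all genes. They were Cd163, the haemoglobin scavenger receptor of macrophages (141 to 761 in the osteosarcomas and 3.8 in mc3T3, difference 3.56 ± 0.76), the haem-binding repressor Bach1 (1.57 ± 0.37), Alas1, which starts haem synthesis (1.40 ± 0.36), and the haem exporter Flvcr1 (1.37 ± 0.34). For each of the 4 every osteosarcoma lay above mc3T3, as in 21.5% of all genes tested. The 4 were picked by their difference from that same array, so this adds little to the calls. In the tumour labelled rhabdomyosarcoma 2 of 18 were called lower than in the osteosarcomas and 0 higher, beside 1.76% and 1.19% of all genes (median difference -0.33 against 0.05 for all genes). Slc46a1, a folate carrier also described as a haem carrier, had 124 in that tumour, against 300 to 592 in the osteosarcomas (-1.60 ± 0.34, adjusted p = 0.0193), and Cpox, an enzyme late in haem synthesis, had 109 in that tumour, against 273 to 565 in the osteosarcomas (-1.55 ± 0.37, adjusted p = 0.0328).

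Hmox1 is also a target of the stress factor Nrf2, and 10 of 12 listed Nrf2 targets were tested. In the osteosarcomas against mc3T3, glutathione reductase (Gsr) was called higher, with 1024 to 2130 in the osteosarcomas and 296 in mc3T3 (2.06 ± 0.33, adjusted p = 0.000787). Osgin1 was called lower, with 70.0 to 203 in the osteosarcomas and 376 in mc3T3 (-1.45 ± 0.42, adjusted p = 0.0326). The other 8 were not called, while 8.59% of all genes were called higher and 4.58% lower. The median difference of the 10 was -0.02, as for all genes. Slc7a11, a cystine transporter gene, was the 1 of the 10 called higher in the tumour labelled rhabdomyosarcoma, with 224 there against 20.7 to 78.5 in the osteosarcomas (1.74 ± 0.40, adjusted p = 0.0278), and the median difference of the 10 was -0.19 against 0.05 for all genes. Slc7a11 passed the filter on low signal only through that array, its signals in the osteosarcomas cannot be told from background, and 1.19% of all genes were called higher.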

How the data were processed

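Total RNA from 14 samples was biotin-labelled for Affymetrix arrays, per the labels' protocols. What was deposited is a linear signal (intensity) for 45101 probe sets, made with the software GCOS, as the submitters' processing notes say. Its version, background correction and probe summary are not given in the sources. The trimmed mean of each array (2% dropped at each end) was 500.0 as deposited. No detection calls were used, and precision is limited by the number of arrays.

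Samples were grouped by their source names, since the description names mc3T3 throughout; osteosarcoma numbers follow accession order and only name the tumours. No array duplicated another (the closest pair had r = 0.954). Symbols came from the platform annotation, with 34754 probe sets updated by Entrez identifier to GRCm38.p6 names; 34958 had 1 symbol, 932 several and 9211 none here. Control probe sets (64) were left out of the tests.

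Genes that reached a signal of 200 on 1 array or more were fitted, each by its brightest probe set, on log2(signal + 30), which understates changes of low genes, in a model of 3 groups (R 4.3.3, limma 3.58.1, lmFit and eBayes, 11 residual and 3.56 prior degrees of freedom). Each correlation had 100000 permutations, and every order where 6 tumours were used. The fit was tested on simulated data, in which every array was drawn with the osteosarcomas' mean and SD before changes were added. That test therefore cannot check whether the single arrays vary as an osteosarcoma does. The text names all 10 members, called genes of the iron, haem and Nrf2 lists with Aco1, Ncoa4 and Fbxl5, and the 3 genes most like each member. Members, lists and alternatives were chosen with earlier results of these data known. Alternatives were other pseudocounts, filters, scalings, probe set rules, a trended prior, the m osteosarcomas, osteosarcomas 6 and 9 left out, and each osteosarcoma left out; the second brightest probe set was added after the data had been seen. Promoter sequences are RefSeq's.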

Additional observations from a re-analysis of the deposited data

How the results depend on the processing

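No paired analysis was possible because the labels give no replicate numbers that groups share. Of 448 values of single iron genes under the alternatives, 431 kept their direction and side of the threshold. Against mc3T3 the count of iron genes called was 2 to 4 over all alternatives that kept the 10 genes or dropped Steap3 through the filter, and 3 to 4 with each osteosarcoma left out. The count was 1 of 5 with the second brightest probe set, because only 5 genes have one tested, and the 1 was Tfrc. Tfrc passed under 23 of 23 alternatives (adjusted p 0.00461 to 0.0191) and Slc11a1 under 22 of 22 (0.00227 to 0.0365). The Ireb2 difference turned to -0.0006 with a common median, -0.0282 without osteosarcomas 6 and 9, -0.0083 without osteosarcoma 6, -0.0193 without osteosarcoma 8 and -0.0154 without osteosarcoma 10, all near 0, and leaving out each osteosarcoma gave -0.0193 to 0.0619. For the tumour labelled rhabdomyosarcoma the count was 0, and 1 (Tfrc) with the m osteosarcomas alone; the cause was not tested. Without a filter on low signal 1.69% of all genes were called in that comparison, against 2.95% with it. The count of passing relations with cell markers was 1, 0 with the m osteosarcomas alone, where fewer tumours enter, and 0 to 2 with each osteosarcoma left out. For pairs of iron genes it was 0, 1 with the mean of all probe sets, and 0 to 1 with each osteosarcoma left out. Single arrays of mc3T3 and of the tumour labelled rhabdomyosarcoma limit both comparisons, and signals under about 200 cannot be told from background.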

Other observations

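Osteosarcoma 1 had the highest Hmox1 (1298), with osteosarcomas 11 (1192) and 5 (1140) close behind, and the highest Heph (2325, against 1696 in osteosarcoma 2). It was also the highest of the 12 in 6 of 10 Nrf2 target genes. Its mean level of that list was 10.12 on the log2 scale, against 8.59 to 9.40 in the other 11 tumours. Gclm, a subunit of the enzyme that starts glutathione synthesis, had 3739 in osteosarcoma 1 and at most 1154 in the others. Srxn1, sulfiredoxin, had 3746 in osteosarcoma 1 and at most 1771 elsewhere, and Nqo1, a quinone reductase, had 603 in osteosarcoma 1 and at most 377 in the others. Blvrb, a biliverdin reductase that acts after haem oxygenase, had 3970.0 in osteosarcoma 1, against a median of 1199 over the 12. Slc7a11, of the same list, was lowest in osteosarcoma 1 (20.7). This tumour was picked after its values were seen, and no test was made.

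In osteosarcoma 6, the tumour with the highest Tfrc by its brightest probe set (1535 by the next one, where osteosarcoma 7 led with 2785), the mitochondrial iron importer Slc25a37 (mitoferrin 1) had a signal of 3901, against a median of 551 over the 12 osteosarcomas. The iron-binding granule proteins Ltf (2103) and Lcn2 (2837) were also highest in it, with at most 676 and 639 in the other 11. The neutrophil marker level of osteosarcoma 6 was 12.42 and its erythroid level 10.09, both the highest of the 12. This tumour, too, was picked after its values were seen.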
